A study of Mus musculus with 15 samples.

Results

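Splicing regulators decide which alternative exons enter the mRNAs of heart muscle, and 9 of their genes are described here across a time course of isoproterenol. The genes are Rbm20, Rbm24, Rbfox1, Rbfox2, Mbnl1, Mbnl2, Celf1, Celf2 and Ptbp1, chosen by symbol with earlier results of these data known, 9 of the 55401 genes in the deposited tables. Isoproterenol is an agonist of the β-adrenergic receptors, given to model hypertrophy and fibrosis of the heart. Total RNA of the ventricles of male C57BL6 mice, 12 weeks old, was sequenced after 4 days (4 hearts), 8 days (3 hearts) or 11 days (4 hearts) of subcutaneous isoproterenol, 50 mg/kg each day, and after saline (4 hearts). All groups share strain, sex and age, and 1 further replicate of the 8-day group was excluded by the study for quality. Hearts are named here by group and replicate letter, such as 4-day A. The labels do not say whether animals with the same letter share a litter or a day, and p-values measure the spread between these hearts.

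The regulators bind short motifs in pre-mRNA and promote or repress the exon nearby, often in a way that depends on which side of the exon they sit. RBM20 represses exons of titin and of calcium-handling genes, and its mutation causes dilated cardiomyopathy, whereas RBM24 promotes exons used in striated muscle. RBFOX1 and RBFOX2 bind GCATG, written here as DNA. MBNL proteins favour adult exon choices and CELF proteins fetal ones on many shared targets, a balance that shifts after birth. PTBP1 represses many exons of muscle and brain and is low in adult heart muscle. Several of the genes also splice their own transcripts.

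Libraries held 25.4 to 117.8 M expected counts (M, mega), the estimated read numbers that RSEM assigns to genes, and mitochondrial transcripts took 47.5 to 58.4% of a library. Of all genes, 26862 had at least 10 counts summed over the 15 libraries and were tested, and all 9 regulators were among them. The cardiomyocyte markers were abundant in every library, at a summed 31453 to 40679 counts per M (CPM), while the skeletal muscle markers summed to 0.110 to 0.609 CPM and Myh4 was at 0 in all 15 libraries. Levels per gene are given below as CPM scaled by TMM, a normalisation of library composition, and levels between genes as FPKM, which divides by transcript length.

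In saline hearts Mbnl2 had the highest FPKM of the 9 genes, at 50.4 ± 3.59 (SD, n = 4 hearts), and Rbm20 followed at 43.5 ± 5.26. Mbnl1 averaged 34.9 ± 4.61, Rbm24 25.3 ± 2.34, Rbfox2 17.7 ± 1.48 and Celf2 17.2 ± 2.87 FPKM in saline hearts. Celf1 at 11.7 ± 1.09, Rbfox1 at 9.28 ± 1.08 and Ptbp1 at 5.47 ± 1.14 FPKM closed the order. The ranges of 4 neighbouring pairs overlapped in saline, namely Mbnl2 and Rbm20, Mbnl1 and Rbm24, Rbfox2 and Celf2, and Celf1 and Rbfox1. After 4 days Rbfox1 averaged 7.13 ± 1.18 FPKM and Ptbp1 6.65 ± 1.09 FPKM (n = 4 hearts each), and the ranges of these last 2 genes overlapped, which they did not in the 8-day, 11-day or saline groups.

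**Figure D1:**
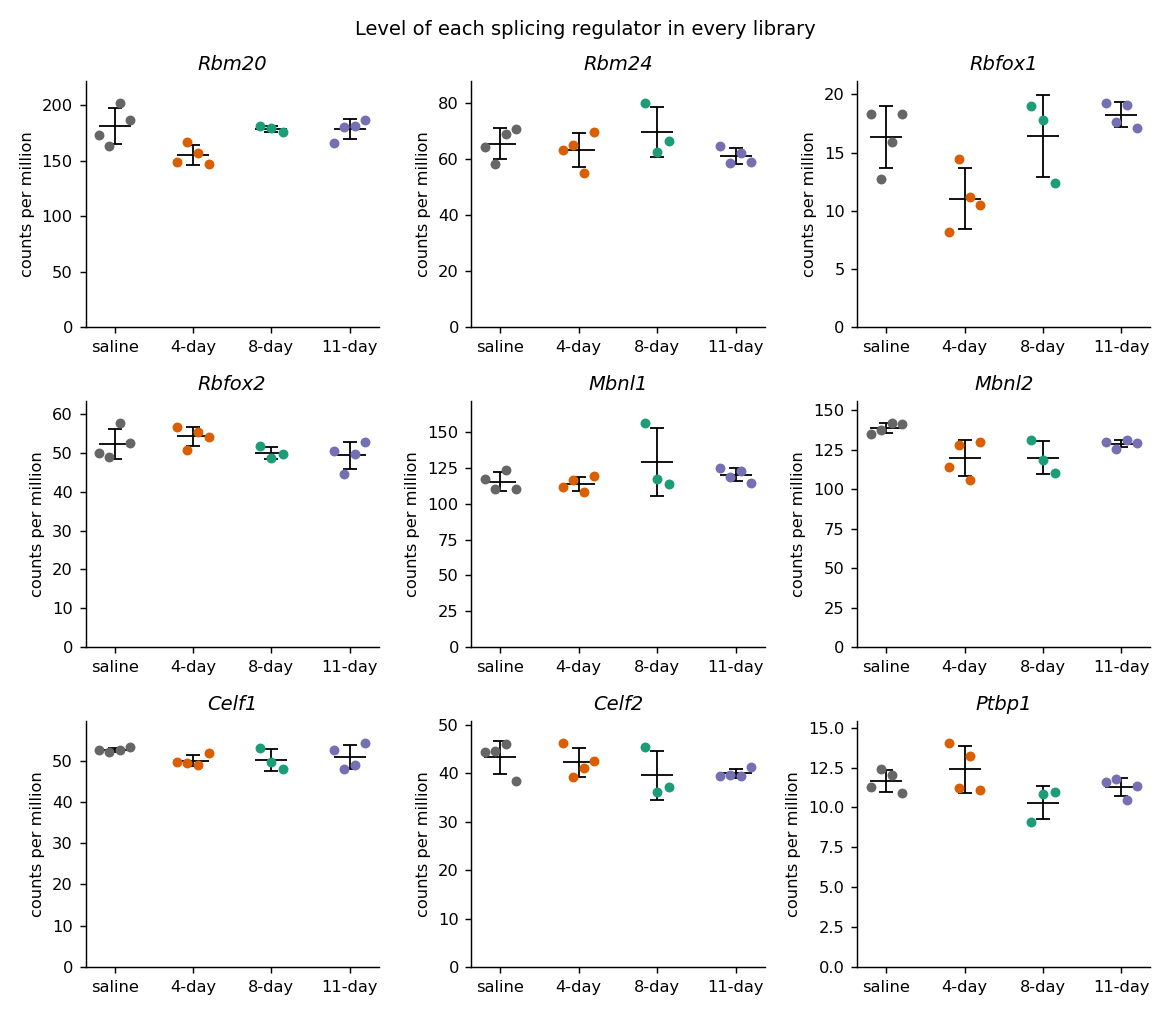
Level of each splicing regulator, in TMM-scaled CPM on a linear axis from 0, in the saline, 4-day, 8-day and 11-day groups; each point is 1 heart and the bar marks the mean ± SD. Rbfox1 sits lowest in the 4-day group (8.15 to 14.4 CPM, against 12.8 to 18.3 in saline), and every isoproterenol value of Mbnl2 lies below the lowest saline value of 135.1.

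Against saline, 1 of the 9 regulators passed edgeR's quasi-likelihood test (adjusted p under 0.05, Benjamini-Hochberg over all 26862 genes) after 4 days, where 9.46% of all genes passed. The gene was Rbfox1, which fell (3.4% of all genes fell). After 8 days 0 of 9 passed (2.27% of all genes) and after 11 days 0 of 9 (3.75%), with 1 and 0 genes at an unadjusted p under 0.05 where 13.0 and 17.2% of all genes reached it. After 4 days 3 of 9 reached an unadjusted p under 0.05, namely Rbfox1, Rbm20 and Mbnl2, against 22.2% of all genes. DESeq2 called 2 of the 9 after 4 days, Rbfox1 and Rbm20 (11.6% of all genes by that tool). The median log2 fold change of the 9 genes was -0.05, -0.07 and -0.06 after 4, 8 and 11 days, against 0.01, -0.01 and -0.01 over all genes. The 3 contrasts between times were also fitted, and Rbfox1 was the 1 of 9 that differed, higher after 11 than after 4 days (10.3% of all genes passed and 3.75% passed as higher; 2 of 9 reached an unadjusted p under 0.05, against 23.2% of all genes). Between 8 and 4 days 0 of 9 passed by edgeR (0.249% of all genes, with 3 of 9 and 11.5% of all genes at an unadjusted p under 0.05), and between 11 and 8 days 0 of 9 (0.138%, with 1 of 9 and 11.2% of all genes unadjusted). An F test over all 4 groups called Rbfox1 alone of the 9 (adjusted p 0.0129 by edgeR, 13.0% of all genes), though not without 4-day A (adjusted p 0.0674).

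**Figure D2:**
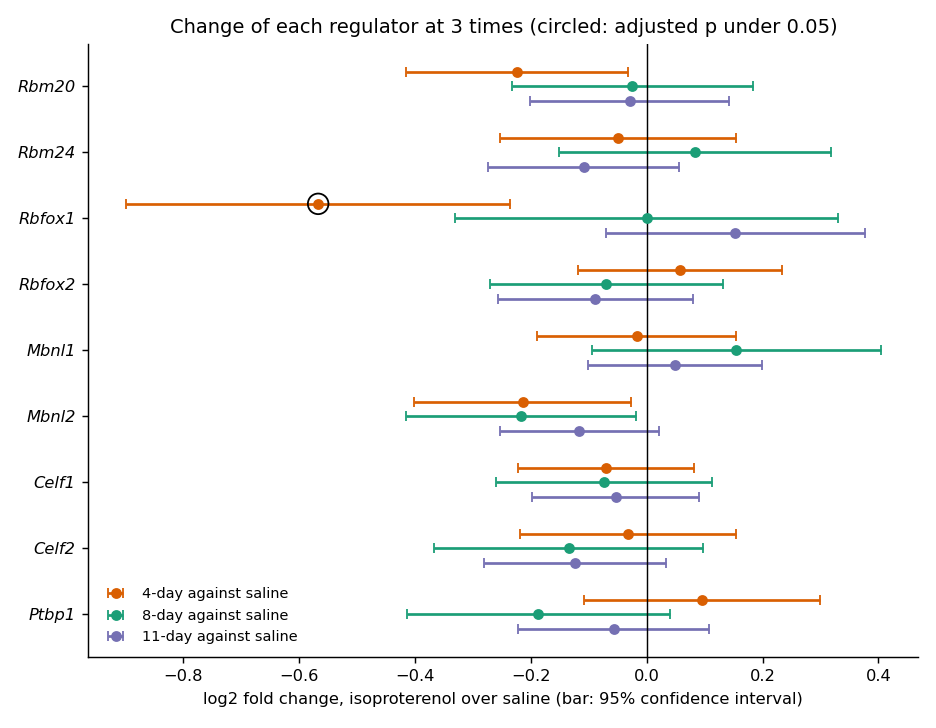
Log2 fold change of each regulator, isoproterenol over saline, after 4, 8 and 11 days; points are edgeR estimates, bars their 95% confidence intervals, and a ring marks an adjusted p under 0.05. The 4-day estimate of Rbfox1 at -0.57 (-0.90 to -0.24) carries the ring, and the 4-day and 8-day intervals of Mbnl2 lie below 0 without one.

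Rbfox1 (ENSMUSG00000008658.16, GRCm38 chr16:5885355-7411526, plus strand) encodes a regulator restricted to brain, heart and skeletal muscle. It had 8.15, 14.4, 11.2 and 10.5 CPM in 4-day hearts A to D, against 18.3, 12.8, 15.9 and 18.3 CPM in saline hearts A to D. Each 4-day heart except 4-day B lay below every saline heart, so the groups overlapped. The log2 fold change was -0.57 (SE 0.154, 95% interval -0.90 to -0.24, adjusted p 0.0341 by edgeR), a level 0.675-fold that of saline. In 8-day hearts A to C Rbfox1 had 19.0, 17.8 and 12.4 CPM, with a mean of 16.4 ± 3.52 CPM, against 16.3 ± 2.63 CPM in saline hearts. Its interval after 8 days ran from -0.33 to 0.33 on the log2 scale, which leaves room for a change of up to 1.26-fold in the upward direction. In 11-day hearts A to D it had 19.2, 17.6, 19.0 and 17.1 CPM, a narrow group that overlapped saline (log2 fold change 0.15, SE 0.104, adjusted p 0.518 by edgeR). Every 11-day heart was above every 4-day heart, the only 1 of the 9 regulators without overlap between these times (14.4% of all genes had none), and the difference between these times was 0.73 on the log2 scale (SE 0.13, adjusted p 0.0033 by edgeR). The 8-day hearts were 0.57 log2 units above the 4-day hearts (SE 0.176), which did not pass (adjusted p 0.192 by edgeR) except without 4-day B (0.72, adjusted p 0.0284).

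The fall of Rbfox1 after 4 days sat close to the threshold. Leaving out 1 heart at a time kept the direction in all 8 fits (-0.71 to -0.45), and the call held in 2 of them, without saline B (adjusted p 0.0113) and without 4-day B (adjusted p 0.0047 by edgeR). Without saline A, C or D the adjusted p was 0.106, 0.0696 and 0.092, and without 4-day A, C or D it was 0.0946, 0.0721 and 0.0907. Scaled by library size alone, which moved the median of all genes to 0.21, Rbfox1 stood at -0.36 (adjusted p 0.124 by edgeR), that is -0.57 relative to that median. The difference between 11 and 4 days passed in all 8 fits that left out 1 heart (0.59 to 0.89, adjusted p at most 0.0137) and in all 9 other alternatives (0.60 to 0.81). The gene had 320 to 1887 counts in a library.

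The cell types of the sample moved at the same time. After 4 days 9 of 10 fibroblast markers rose and 1 fell, and their summed level was 1647 to 5151 CPM in 4-day hearts, against 785 to 969 CPM in saline hearts. Rbfox1 was lowest in 4-day A, which had the highest fibroblast sum of 5151 CPM. Among 4-day hearts it was highest in 4-day B, which had the lowest sum of 1647 CPM. The order was the other way between 4-day C and D, with 11.2 and 10.5 CPM of Rbfox1 beside sums of 3888 and 3482 CPM. In saline hearts A to D the sums were 843, 968, 785 and 969 CPM, beside 18.3, 12.8, 15.9 and 18.3 CPM of Rbfox1. Macrophage markers rose in 9 of 10 cases (217 to 360 CPM summed in 4-day hearts, against 109 to 178 in saline), and 4 of 10 cardiomyocyte markers fell (31828 to 36649 CPM, against 34128 to 40679 in saline). In bulk samples fewer cells of a type and less RNA per cell cannot be told apart. Divided by the cardiomyocyte sum, Rbfox1 stood at 329 ± 61.0 ppm of that sum in 4-day hearts and 431 ± 50.1 in saline hearts, a log2 difference of -0.40 with overlapping ranges (exact two-sided permutation p 0.0571, n = 4 each). The same ratio was 486 ± 42.7 in 11-day hearts and 329 ± 61.0 in 4-day hearts, with no overlap (log2 difference 0.58, exact permutation p 0.0286, the smallest that 4 against 4 allows). Rbfox2 had no overlap on its ratio either, in the opposite direction (log2 difference -0.31, exact permutation p 0.0286). The ratios of the other regulators overlapped between these times. Between 11 and 4 days 5 cardiomyocyte markers were higher and 1 lower, 6 fibroblast markers were lower and 1 higher, and 8 macrophage markers were lower. The part of these cell types in the Rbfox1 values was not tested.

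Of 8540 genes with a mean of at least 5 CPM, the one whose level followed Rbfox1 most closely over the 15 libraries was Pxmp2, a peroxisomal membrane protein, with a root mean square difference of 0.148 log2 units after centring both on saline. Pxmp2 fell after 4 days (13.4 ± 2.39 CPM in 4-day hearts and 19.3 ± 3.08 CPM in saline hearts, log2 fold change -0.53, adjusted p 0.0225 by edgeR). Next was Cox7a1, the muscle form of a cytochrome c oxidase subunit, at 0.151 log2 units, with a 4-day log2 fold change of -0.44 (adjusted p 0.0576 by edgeR). Both genes were picked from these same 15 libraries for their closeness to Rbfox1. Their lower 4-day level thus follows largely from the choice and is no separate evidence.

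Rbfox1 and its paralogue Rbfox2 carry a pair of short coding exons of 40 and 43 bases in the same order, of which the first is known as the brain form and the second as the muscle form. They are shown because the proportion of the pair differed between the genes. Sequences come from GENCODE M21 transcripts (GRCm38), and capitals mark bases that are identical at the same position of the exon of the other gene. The Rbfox1 exons lie at chr16:7363865-7363904 and chr16:7369801-7369843 (plus strand), and the Rbfox2 exons at chr15:77094451-77094490 and chr15:77091812-77091854 (minus strand).
Rbfox1 40-base exon: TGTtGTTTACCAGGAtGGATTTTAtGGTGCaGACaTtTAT
Rbfox2 40-base exon: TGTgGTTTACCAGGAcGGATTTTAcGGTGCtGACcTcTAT
Rbfox1 43-base exon: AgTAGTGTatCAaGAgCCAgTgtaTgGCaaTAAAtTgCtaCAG
Rbfox2 43-base exon: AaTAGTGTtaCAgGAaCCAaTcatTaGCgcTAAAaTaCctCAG
The 40-base exons were identical at 34 of 40 positions (85.0%) and the 43-base exons at 27 of 43 (62.8%).

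Exon inclusion was computed as the FPKM of transcripts that contain an exon, as a percentage of those and of transcripts that span its place without it. It rests on RSEM's division of reads among annotated transcripts, not on counts of junction reads. In Rbfox1 the 40-base exon was included at 40.4% and the 43-base exon at 59.6% on average over the 15 libraries. In Rbfox2 the 40-base exon was at 57.5% and the 43-base exon at 40.2%. The 40-base exon was lower in Rbfox1 than in Rbfox2 in 15 of 15 libraries (mean difference -17.0 ± 6.27 percentage points), and the 43-base exon was higher in Rbfox1 in 15 of 15 (19.4 ± 5.88 points). Which exon led depended on the unit. With expected counts in place of FPKM, which give longer transcripts more weight, the 40-base exon led in both genes, at 66.6% in Rbfox1 and 86.1% in Rbfox2, with the 43-base exon at 33.4 and 13.0%. The difference between the genes kept its direction in 15 of 15 libraries for each exon (-19.5 ± 4.89 and 20.4 ± 4.84 points by counts). Under isoproterenol the hearts of each group overlapped those of saline for both exons of both genes. The mean of the Rbfox1 43-base exon still lay below its saline range of 58.9 to 65.1% after 8 and 11 days. That of the Rbfox1 40-base exon lay above its own saline range at these times. In 11-day hearts A to D the Rbfox1 43-base exon was at 55.2, 57.6, 54.4 and 61.1%. The Rbfox1 43-base exon averaged 61.3, 58.8 and 57.1% after 4, 8 and 11 days and 60.9% in saline, and that of Rbfox2 39.4, 41.7 and 39.4% and 40.7% in saline. Among single hearts 8-day A stood out for Rbfox1, with 48.1% of the 43-base exon, against 62.2 and 66.0% in 8-day B and C. This library had 15.8% of its counts in CT010467.1 and Lars2, and the part of that share in its exon value was not tested.

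**Figure D3:**
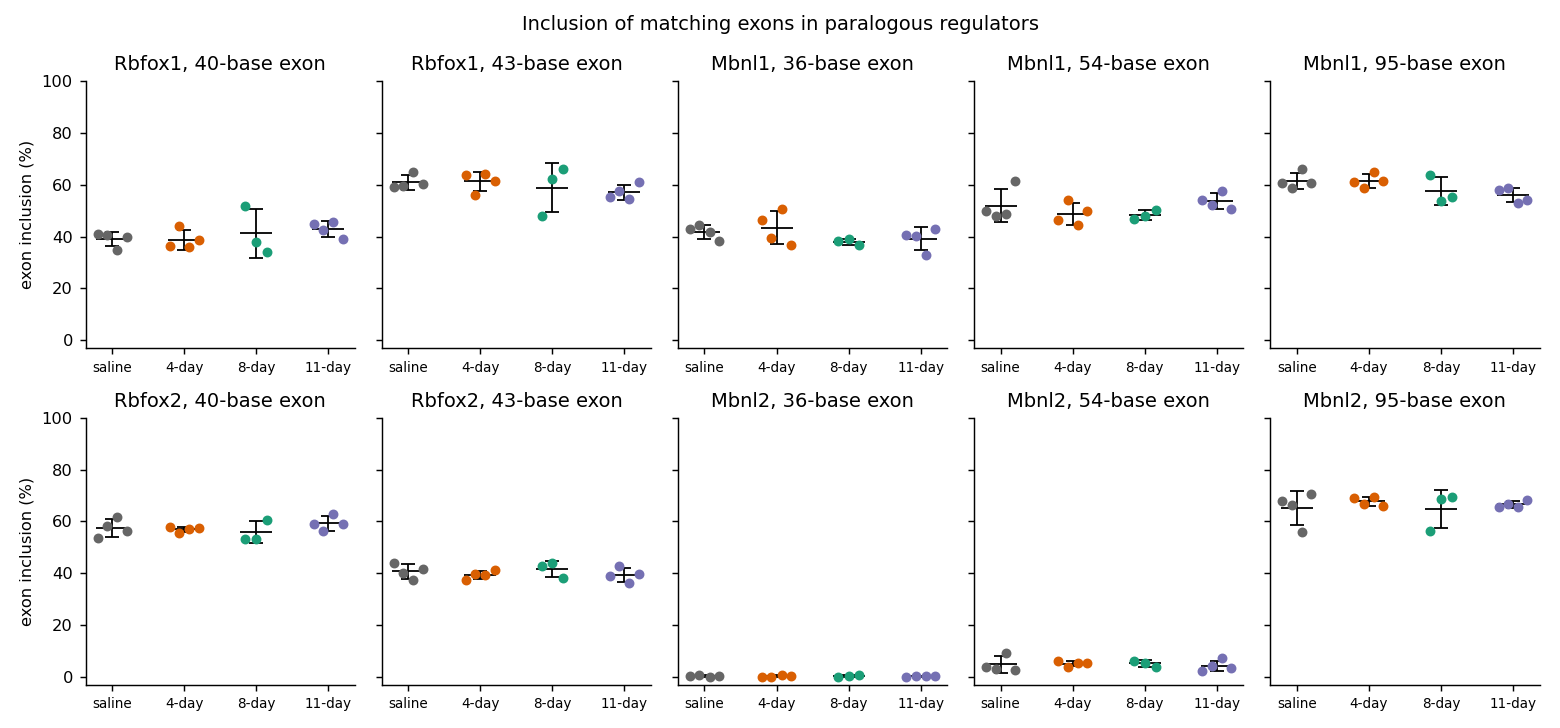
Inclusion, in % of transcripts by FPKM, of exons of the same length in Rbfox1 and Rbfox2 (40 and 43 bases) and in Mbnl1 and Mbnl2 (54, 36 and 95 bases), by group; each point is 1 heart and the bar marks the mean ± SD. Rbfox1 is below Rbfox2 for the 40-base exon and above it for the 43-base exon, Mbnl2 is near 0 for the 54-base and 36-base exons (means 4.86 and 0.334%) where Mbnl1 is near the middle (50.9 and 40.8%), and groups overlap within each panel.

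Rbfox2 (ENSMUSG00000033565.18, chr15:77078990-77307004, minus strand), the more widely expressed paralogue, kept a narrow range of levels in CPM. It averaged 54.3 ± 2.53, 50.0 ± 1.51 and 49.4 ± 3.42 CPM after 4, 8 and 11 days and 52.3 ± 3.91 CPM in saline. The log2 fold changes were 0.06, -0.07 and -0.09, and their 95% intervals together spanned -0.27 to 0.23. Its main transcript Rbfox2-203 took 74.2, 69.5 and 74.8% of the gene's counts after 4, 8 and 11 days and 76.5% in saline. Rbfox2-204 took 8.3, 12.3 and 7.8% after 4, 8 and 11 days and 6.1% in saline, and was the 1 of 35 tested transcripts of the regulators with an unadjusted p under 0.05 after 8 days (log2 change in usage 0.72, p 0.0106, adjusted p 1.0 by edgeR's diffSpliceDGE). The transcripts of Rbfox1 were as even, with Rbfox1-201 at 63.8, 66.5 and 67.8% after 4, 8 and 11 days and 66.2% in saline, and Rbfox1-203 at 31.0, 29.0 and 27.8% and 28.2% in saline. The lower level of Rbfox1 after 4 days thus came with no called change in the shares of its transcripts.

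Rbm20 (ENSMUSG00000043639.15, chr19:53677306-53867080, plus strand) came second to Mbnl2 by FPKM in saline. It had 149.1, 166.6, 156.5 and 146.5 CPM in 4-day hearts A to D, against 173.0, 163.5, 201.4 and 186.3 CPM in saline hearts A to D. Every 4-day heart except 4-day B was below every saline heart. The log2 fold change was -0.22 (SE 0.0889, adjusted p 0.151 by edgeR), while DESeq2 gave an adjusted p of 0.0479. On library size alone the value was -0.02, and the all-gene median then stood at 0.21. In 8-day hearts A to C Rbm20 had 181.2, 178.9 and 175.6 CPM, each above every 4-day heart (2 of 9 regulators and 10.6% of all genes had no overlap between 8 and 4 days), and in 11-day hearts A to D it had 165.4, 180.1, 181.2 and 186.7 CPM. The difference between 11 and 4 days was 0.20 log2 units (SE 0.0698, adjusted p 0.094 by edgeR, 0.0197 by DESeq2, and 0.0282 by edgeR without 4-day B), and against saline the 8-day and 11-day values were -0.03 and -0.03. Rbm20 and Rbfox1 had their lowest mean CPM after 4 days, as did Mbnl1, Mbnl2 and Celf1. For Rbm20 the difference from saline passed in DESeq2 and not in edgeR. By FPKM its lowest mean came after 8 days, at 41.5, against 42.2 after 4 days. Divided by the cardiomyocyte sum, Rbm20 differed from saline by -0.05 log2 units after 4 days (exact permutation p 0.743).

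The counts of Rbm20 went to 2 transcripts in close to equal parts, Rbm20-203, which codes for the protein, with 51.2, 53.7 and 50.5% after 4, 8 and 11 days and 51.9% in saline, and Rbm20-201, annotated as a target of nonsense-mediated decay, with 47.9, 45.2 and 48.6% and 47.1% in saline. They differ in an exon of 46 bases (chr19:53852354-53852399), whose inclusion was 49.6 ± 0.964, 46.9 ± 2.44 and 50.3 ± 0.58% after 4, 8 and 11 days and 48.8 ± 2.18% in saline. Rbm24 (ENSMUSG00000038132.6, chr13:46418434-46431095, plus strand) had 63.0, 65.1, 54.9 and 69.5 CPM in 4-day hearts A to D, against 64.2, 58.2, 68.9 and 70.7 CPM in saline. It averaged 69.6 ± 9.04 and 61.1 ± 2.84 CPM after 8 and 11 days. All its values against saline overlapped, with log2 fold changes of -0.05, 0.08 and -0.11. The 11-day hearts were 0.19 log2 units below the 8-day hearts (log2 fold change -0.19, unadjusted p 0.0472, adjusted p 0.435 by edgeR), and without 8-day A, which had 79.8 CPM, the value was -0.08. A single transcript, Rbm24-201, held 98.2 to 98.5% of its counts in every group mean.

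Mbnl2 (ENSMUSG00000022139.17, chr14:120275669-120431697, plus strand) was the regulator with the most even difference from saline. It had 114.4, 127.8, 105.9 and 130.2 CPM in 4-day hearts A to D, against 135.1, 137.9, 141.9 and 141.4 CPM in saline hearts. In 8-day hearts it had 131.2, 118.6 and 110.3 CPM, and in 11-day hearts 130.1, 125.5, 131.2 and 129.1 CPM. All 11 isoproterenol hearts were below all 4 saline hearts, yet no time passed the test. The log2 fold changes were -0.21 (SE 0.0868, adjusted p 0.159), -0.22 (SE 0.0925, adjusted p 0.327) and -0.12 (SE 0.0639, adjusted p 0.391) by edgeR. Beside Mbnl2, Celf1 after 4 days was the other regulator whose CPM ranges did not overlap those of saline, which makes 2, 1 and 1 of 9 genes after 4, 8 and 11 days, all lower, against 13.7, 12.9 and 10.6% of all genes without overlap and 5.65, 5.97 and 4.77% lower. The value of Mbnl2 depended on the scale. On library size alone it was -0.01, -0.31 and -0.04 at the 3 times, and on log2(FPKM + 1) it was -0.00103, -0.29 and 0.00223. In 8-day hearts A to C Mbnl2 had 35.1, 41.8 and 46.4 FPKM. Divided by the cardiomyocyte sum, Mbnl2 differed from saline by -0.05, -0.05 and -0.11 log2 units at the 3 times, with overlapping ranges at each.

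Mbnl1 (ENSMUSG00000027763.13, chr3:60472830-60629750, plus strand) had 111.4, 116.6, 108.3 and 119.0 CPM in 4-day hearts A to D, against 117.5, 110.4, 123.5 and 110.4 CPM in saline. The log2 fold change after 4 days was -0.02, with an interval of -0.19 to 0.15. In 8-day A it had 156.1 CPM, above every other library, while 8-day B and C had 117.0 and 113.6 CPM. The 8-day log2 fold change was 0.15 (adjusted p 0.641 by edgeR) and -0.02 without 8-day A. In 11-day hearts it had 114.4 to 124.7 CPM. Its counts were spread over many transcripts, of which Mbnl1-218 led with 31.9, 35.6 and 35.9% after 4, 8 and 11 days and 31.3% in saline. Mbnl1-214, Mbnl1-201 and Mbnl1-211 took 7.8 to 15.6% each in the group means. Mbnl2 was simpler, with Mbnl2-204 at 46.0 to 49.6% in the group means, Mbnl2-205, annotated without a protein, at 29.9 to 32.5%, and the retained-intron transcript Mbnl2-206 at 8.0 to 10.7%.

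Matching exons set the Mbnl paralogues apart. Those of 54 and 36 bases are shown, since Mbnl1 used them and Mbnl2 nearly did not. The 54-base exon is known for its part in keeping MBNL1 in the nucleus. It lies at chr3:60614683-60614736 in Mbnl1 and chr14:120395712-120395765 in Mbnl2, and the 36-base exon at chr3:60621423-60621458 and chr14:120403336-120403371. Capitals again mark bases identical between the genes.
Mbnl1 54-base exon: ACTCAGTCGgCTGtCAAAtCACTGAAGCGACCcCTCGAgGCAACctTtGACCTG
Mbnl2 54-base exon: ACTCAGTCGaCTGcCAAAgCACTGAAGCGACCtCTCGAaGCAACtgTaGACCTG
Mbnl1 36-base exon: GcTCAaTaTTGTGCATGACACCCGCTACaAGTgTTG
Mbnl2 36-base exon: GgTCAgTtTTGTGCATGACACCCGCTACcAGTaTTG
The sequences were identical at 46 of 54 (85.2%) and 31 of 36 positions (86.1%). Inclusion of the 54-base exon was 50.9% in Mbnl1 (44.5 to 61.5%) and 4.86% in Mbnl2 (2.51 to 9.44%) over the 15 libraries, and that of the 36-base exon 40.8% (32.9 to 50.8%) and 0.334% (0 to 0.757%). Mbnl1 was higher in 15 of 15 libraries for both. Another matching exon of 95 bases, identical at 81 of 95 positions (85.3%), was at 59.3% in Mbnl1 and 66.2% in Mbnl2 (mean difference -6.87 ± 7.21 points), with Mbnl2 higher in 13 of 15 libraries. By expected counts the means were 57.5 and 8.71% for the 54-base exon, 34.5 and 0.553% for the 36-base exon and 53.4 and 62.6% for the 95-base exon in Mbnl1 and Mbnl2. Both 36-base exons hold the letters TGCATG, the longer form of the motif that RBFOX proteins bind, starting at position 12. Searched on the transcript strand, these letters occur in 1 of the 15 alternative exons of the regulators and in 2.15% of 4374 such exons of all genes (0.587% of those of 30 to 45 bases). The 54-base exon of Mbnl1 averaged 48.8, 48.4 and 53.7% after 4, 8 and 11 days and 52.0% in saline, and its 36-base exon 43.5, 38.1 and 39.2% and 41.7% in saline, with overlapping ranges throughout.

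Celf1 (ENSMUSG00000005506.16, chr2:90940382-91019497, plus strand) had 49.6, 49.4, 49.1 and 51.9 CPM in 4-day hearts A to D, against 52.6, 52.2, 52.6 and 53.3 CPM in saline. All 4-day hearts were below all saline hearts, though by a log2 fold change of -0.07 only (SE 0.0704, adjusted p 0.632 by edgeR). The 8-day and 11-day groups averaged 50.2 ± 2.62 and 51.0 ± 2.92 CPM. On the FPKM scale Celf1 went the other way, with 14.8 ± 1.63 and 15.3 ± 1.49 FPKM after 4 and 11 days and 11.7 ± 1.09 in saline. A 271-base transcript without a protein, Celf1-211, carried this difference: without transcripts under 300 bases the gene had 11.5, 9.85 and 11.2 FPKM after 4, 8 and 11 days and 10.8 in saline. Celf1-211 held 7.57 to 50.1 counts in isoproterenol libraries and 2.0 to 10.3 in saline libraries, or 0.462 to 1.22% of the gene's counts in isoproterenol hearts and 0.158 to 0.247% in saline hearts. Its share was thus above every saline heart in all 11 isoproterenol hearts. With transcripts of any share admitted, the adjusted p for its usage was 0.842 by diffSpliceDGE after 11 days and 1.0 after 4 and 8 days, and this transcript was singled out after its values were seen.

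The main Celf1 transcript, Celf1-205, took 46.5, 47.7 and 51.7% of counts after 4, 8 and 11 days and 52.3% in saline. Celf1-204, Celf1-203 and Celf1-207 took 7.3 to 15.5% each in the group means, and none was called. Celf2 (ENSMUSG00000002107.18, chr2:6539694-7509563, minus strand) had 46.3, 39.3, 41.1 and 42.5 CPM in 4-day hearts A to D, against 44.4, 44.6, 46.0 and 38.4 CPM in saline, and averaged 39.6 ± 5.01 CPM after 8 days. In 11-day hearts it had 39.6, 39.6, 39.5 and 41.4 CPM. Its log2 fold changes were -0.03, -0.13 and -0.12, and its ranges overlapped those of saline at each time. Celf2-206, Celf2-226 and Celf2-202 led, with 23.1 to 25.8%, 16.9 to 18.3% and at least 12.2% of counts in the group means. A coding exon of 144 bases (chr2:6549832-6549975) was included at 71.5, 66.4 and 70.5% after 4, 8 and 11 days and 70.8% in saline. Between Celf1 and Celf2, neither paralogue passed the test at any time.

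**Figure D4:**
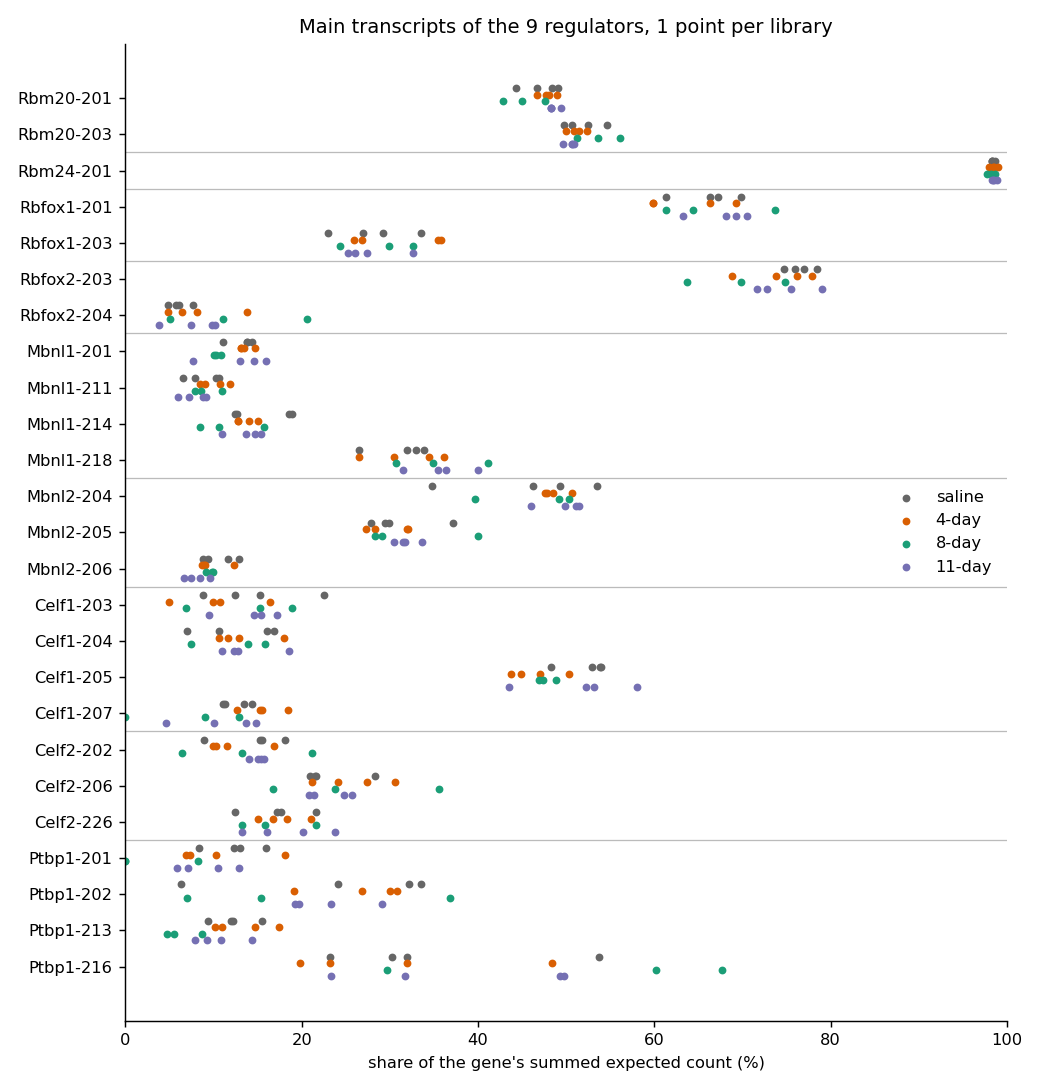
Share of its gene's summed expected count, in %, held by each main transcript of the 9 regulators; each point is 1 heart, coloured by the saline, 4-day, 8-day and 11-day groups. The groups lie over each other for nearly all transcripts, and the transcripts of Ptbp1 spread most, with Ptbp1-216 at a mean of 52.5% after 8 days, against 34.8% in saline.

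Ptbp1 (ENSMUSG00000006498.16, chr10:79854427-79864771, plus strand) had the lowest FPKM of the 9 in saline. It had 14.0, 11.2, 13.2 and 11.1 CPM in 4-day hearts A to D, against 11.3, 12.4, 12.0 and 10.9 CPM in saline. In 8-day hearts it had 9.12, 10.9 and 10.9 CPM, each below every 4-day heart, and in 11-day hearts 10.5 to 11.8 CPM. The log2 fold changes were 0.10, -0.19 and -0.06 against saline, and -0.28 for 8 days over 4 days (SE 0.112, adjusted p 0.331 by edgeR). Exons of E130317F20Rik and Plppr3 overlap those of Ptbp1 on the other strand by 295 and 251 bases. The strand setting of the counts is not given in the sources used here, so reads there cannot be told apart. The counts of these genes came to at most 12.3 and 7.91% of that of Ptbp1 in a library. The same limit holds for Celf2, whose exons overlap those of Gm26565 on the other strand by 1961 bases, with no counts of Gm26565 available. For Mbnl2 the overlap with Gm26679 was 86 bases, with counts of at most 0.219% of that of Mbnl2. In addition, 8.04% of the 50-base windows of Ptbp1-216 occur in processed pseudogenes, while the main transcripts of the other 8 regulators shared 0% with other genes.

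Ptbp1-216 took 30.8, 52.5 and 38.5% of counts after 4, 8 and 11 days and 34.8% in saline, and Ptbp1-202 26.7, 19.7 and 22.8% and 24.0% in saline. Ptbp1-201, annotated for nonsense-mediated decay, took 10.6, 2.8 and 9.1% and 12.4% in saline, and the retained-intron transcript Ptbp1-213 13.3, 6.3 and 10.6% and 12.3% in saline. The change in usage of Ptbp1-201 after 8 days was -1.5 on the log2 scale (unadjusted p 0.143, adjusted p 1.0 by diffSpliceDGE). These transcripts differ in an exon of 34 bases at chr10:79862014-79862047, shown because skipping it is the known way in which PTBP1 lowers its own mRNA.
Ptbp1 34-base exon: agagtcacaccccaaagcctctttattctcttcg
Its inclusion was 100, 84.6 and 100% in 8-day hearts A to C, against 75.2, 72.5, 83.1 and 77.1% in saline hearts A to D. No 8-day heart overlapped saline, and the difference was 17.9 percentage points (exact permutation p 0.0286, the smallest that 3 against 4 allows, adjusted p 0.926 over 4374 exons). Inclusion averaged 80.0% after 4 days and 82.4% after 11 days, with ranges that overlapped saline. At least 216 counts lay behind each library's value. The 78-base exon (chr10:79860117-79860194) averaged 39.6, 65.3 and 49.0% after 4, 8 and 11 days and 45.6% in saline, where saline D at 69.4% stood apart from the others at 38.7% or less.

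Over all 15 alternative coding exons of 7 of the regulators, chosen after values had been seen as internal, at most 200 bases long and included at 10 to 90% on average, 0, 2 and 0 were without overlap with saline after 4, 8 and 11 days. Over all 4374 exons of 2514 genes the shares were 4.23, 5.33 and 5.12%. By expected counts the numbers were 0, 2 and 1 of 15 (4.41, 5.26 and 4.8% of all exons), with the 51-base exon of Rbfox2 added after 11 days. With protein-coding transcripts only they were 0, 0 and 1 of 11 (4.26, 5.4 and 4.78% of 3240 exons), the last being the 95-base exon of Mbnl1. The 2 exons without overlap after 8 days were not among these 11, so this setting did not test them. The second of the 8-day exons was the 49-base exon of Mbnl1 (chr3:60615725-60615773), at 62.4, 41.4 and 38.2% in 8-day hearts, against 100, 88.1, 100 and 100% in saline hearts A to D. It rested on as few as 16.3 counts in a library (exact permutation p 0.0286, adjusted p 0.926). Its saline mean of 97.0% lay above the 90% limit of the rule, as did that of the 51-base exon of Rbfox2 at 93.4%. Both exons entered the set only through lower isoproterenol values, so their fall from saline was partly fixed by the rule. After adjustment 0 of the 4374 exons passed, those of the regulators included. With 0.0286 as the smallest exact permutation p, an exon could pass only if a large part of all exons reached that floor. An exact permutation p under 0.05 was reached by 185, 135 and 224 of the 4374 after 4, 8 and 11 days. The adjusted test thus could not call any exon at these group sizes, and no conclusion is drawn from it. The median size of the differences was 1.33, 3.02 and 2.53 percentage points after 4, 8 and 11 days, against 3.93, 4.48 and 3.82 over all exons, and by expected counts 1.82, 0.664 and 1.89 points, against 2.44, 2.75 and 2.28 over all exons. The exons of a gene share transcripts, and those of 40 and 43 bases in Rbfox1 sum to 100% by annotation. Of the 35 transcripts of 8 regulators tested for usage by diffSpliceDGE, 0 passed at each time, with 0, 1 and 0 at an unadjusted p under 0.05, against 0.0767, 0.0614 and 0.0706% of all transcripts that passed and 3.16, 2.86 and 3.21% that reached the unadjusted threshold. In limma's diffSplice 0 of the regulators' transcripts passed as well, where 0.641, 0.233 and 0.617% of all transcripts did.

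Other members of these families and other splicing regulators were listed with earlier results known, 25 genes of which 22 were tested. After 4 days 2 were higher and 2 lower by edgeR (9.46% of all genes passed). After 8 days 0 passed (2.27% of all genes), with 4 at an unadjusted p under 0.05, against 13.0% of all genes. After 11 days 0 were higher and 2 lower (3.75% of all genes passed). Rbpms, an RNA-binding regulator of muscle splicing, fell after 4 and 11 days, with 29.8 ± 0.889 and 31.0 ± 1.497 CPM and 38.2 ± 2.21 CPM in saline (log2 fold changes -0.36 and -0.31, adjusted p 0.009 and 0.0283 by edgeR). With effective lengths as offsets it was -0.22 and -0.16 and did not pass, nor did it on library size alone or on FPKM, and the 11-day call held only without saline B or saline D. Khdrbs3, a STAR-family regulator, fell after 4 days to 13.4 ± 2.21 CPM, against 17.8 ± 0.928 CPM in saline (-0.40, adjusted p 0.0268 by edgeR), a call that held only without saline B, saline C or 4-day B (-0.51 to -0.34 over the 8 fits). Elavl1, which stabilises and splices many mRNAs, fell after 11 days to 12.8 ± 0.954 CPM, against 16.2 ± 1.49 CPM in saline (-0.34, adjusted p 0.0423 by edgeR), and passed only without saline B when hearts were left out (-0.37 to -0.27). Rbm47 and Celf5 rose after 4 days at low levels, Rbm47 with 1.04 ± 0.326 CPM in 4-day hearts and 0.55 ± 0.144 in saline, and Celf5 with 0.167 ± 0.0638 CPM and 0.0319 ± 0.0276 CPM in saline. Both calls were lost without saline A, saline C, 4-day A or 4-day C (0.84 to 1.18 for Rbm47 and 1.86 to 2.55 for Celf5 over all 8 fits), and that of Celf5 also without saline D or 4-day D. Of these 5 genes, none passed with effective lengths as offsets or on FPKM. The list's median log2 fold change was -0.06, -0.04 and -0.09 at the 3 times, near that of all genes.

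Among 27 genes whose pre-mRNAs are known targets of one or more of the 9 regulators, levels passed in 5 cases after 4 days (3 higher, 2 lower), in 1 after 8 days and in 1 after 11 days. Of all genes 9.46, 2.27 and 3.75% passed at these times. Ablim1, an actin-binding protein of the sarcomere, was lower at each time, with 193 ± 14.1, 184 ± 6.75 and 186 ± 15.1 CPM after 4, 8 and 11 days and 249 ± 5.94 CPM in saline. Its log2 fold changes were -0.37, -0.44 and -0.43 (adjusted p 0.0117, 0.0168 and 0.0067 by edgeR), and no isoproterenol heart overlapped saline. On library size alone and on FPKM it did not pass at any of the 3 times, nor after 4 days without 4-day A (-0.33) or after 8 days without saline A, 8-day B or 8-day C (-0.44 to -0.43). Lmo7 fell after 4 days (217 ± 14.1 CPM, against 267 ± 17.9 CPM in saline, -0.29, adjusted p 0.0498 by edgeR), and passed only without saline B when hearts were left out (-0.35 to -0.26). Fn1, the fibronectin gene, rose after 4 days to 180 ± 84.8 CPM, against 29.6 ± 8.44 CPM in saline (2.61, adjusted p 0.0006), alongside the fibroblast markers given above. Actn1, a non-muscle α-actinin, also rose after 4 days (0.61). It was not called when 4-day A, 4-day C, 4-day D, saline A or saline D was left out (0.49 to 0.73 over the 8 fits). Of Camk2d, a known RBM20 target, the CPM was 86.8 ± 2.51, 89.2 ± 4.75 and 84.0 ± 3.21 after 4, 8 and 11 days and 95.3 ± 4.6 in saline, without a call in edgeR. Transcript usage was tested in 24 of the targets, and 0 passed at each time by diffSpliceDGE (0.179, 0.143 and 0.206% of all genes), with 1, 0 and 1 at an unadjusted p under 0.05. Of all genes 3.79, 3.38 and 3.82% reached that unadjusted threshold.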

How the data were processed

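Ventricular RNA of 15 hearts was analysed. Per the submitters' processing notes, the authors used cutadapt 4.1, HISAT2 2.2.1, RSEM 1.3.3 and DESeq2 on GRCm38.p6. The authors deposited expected counts per gene and transcript, estimated counts that are not normalised. The authors also deposited FPKM, which divides by effective length and library total, TPM, which was not used, and IsoPct, the percent of a gene's abundance held by a transcript. Effective lengths, in bases, were deposited too and served as offsets.

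Expected counts were rounded, genes with a sum of at least 10 were kept, and for each time the libraries of that group and of saline were fitted by edgeR 4.0.16 (TMM, quasi-likelihood, two-sided, Benjamini-Hochberg, threshold 0.05; R 4.3.3). Transcript usage was tested by diffSpliceDGE on transcripts with at least 5% of their gene. Exon inclusion was compared by exact permutation tests, two-sided, adjusted over all 4374 exons. Scripts were tested on simulated data. The number of hearts limits the precision, and intervals cover the spread between them.

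The 9 genes and all lists were chosen with earlier results of these data known. Every regulator was named at each time, with transcripts of at least 10% of their gene in a group mean, up to 4 genes of each list with the smallest p at each time, and the 2 genes most like any regulator that changed. Alternatives were other scalings and filters, robust dispersions, length offsets, DESeq2 1.42.0, limma 3.58.1 (voom, diffSplice, FPKM), the replicate letter as a block, all groups in one fit, and each library left out. The exon rule, inclusion by counts or by coding transcripts, FPKM without short transcripts and ratios to cardiomyocyte markers were added after seeing the data. No genome sequence was used, and protein sequences were not analysed here. Values of 1 target gene are not reported here.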

Additional observations from a re-analysis of the deposited data

Results flagged for a closer look

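Of 72 groups of 4 hearts examined, over levels and exons of the regulators, 5 had 1 heart far from the other 3, and chance gives this in about 1 of 20 groups. Celf2 was at 41.4 CPM in 11-day D, against 39.5 to 39.6 CPM in the other 11-day hearts, a narrow group. The 49-base exon of Mbnl1 was included at 88.1% in saline B and at 100% in the other saline hearts. In saline D the 54-base exon of Mbnl1 was at 61.5%, against 48.1 to 49.7% in the others, and the 78-base exon of Ptbp1 at 69.4%, against 38.7% or less. That library also had the highest mitochondrial share, 58.4% of counts, whose part in these values was not tested. The 46-base exon of Rbm20 was at 51.2% in 11-day C, against 49.9 to 50.0%.

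Rbfox1 differed between times, 0.73 log2 units higher after 11 than after 4 days by a direct test of the difference.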

How the results depend on the processing

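After 4 days the count of regulators called was 1, and it was 0 with library size only, robust dispersions (Rbfox1 adjusted p 0.063 by edgeR) and limma on log2(FPKM + 0.1) or log2(FPKM + 1), 2 with DESeq2, and 0 to 1 with a heart left out. Of all genes 10.5, 9.73, 3.74 and 3.1% passed with library size only, robust dispersions and the 2 FPKM scales. Between 11 and 4 days the count of 1 became 2 (Rbm20 added) with DESeq2 (11.9% of all genes) and with limma voom (12.5%), and was 1 to 2 with a heart left out. Between 8 and 4 days the count of 0 became 1 (Rbfox1, adjusted p 0.0412; 1.88% of all genes) without a filter on low counts, and was 0 to 1 with a heart left out. Over all groups the count of 1 became 2 with DESeq2 (17.0% of all genes) and with voom (14.1%), and was 0 to 1 with a heart left out. Without the filter on transcript share, 1, 1 and 4 transcripts of the regulators passed after 4, 8 and 11 days, in place of 0, where 0.279, 0.186 and 0.361% of all transcripts did. They were Mbnl1-202, at 0 in all 4 saline libraries and detected in 7 of 11 isoproterenol libraries, and Celf1-202, Celf1-206 and Celf1-208 after 11 days. The same setting called 4, 3 and 2 target genes in place of 0 (1.12, 0.704 and 1.3% of all genes). Ttn was among them at each time (adjusted p 0.0051, 8.63e-17 and 0.0103 by diffSpliceDGE), Ablim1 after 4 days and Fn1 after 4 and 11 days. With the share filter, limma's diffSplice called 1 (Ttn, adjusted p 0.0365, where 1.5% of all genes passed) after 4 days. No direction was reversed among called results. For the single regulators, 645 of 720 alternative values and 526 of 540 with a heart left out counted as unchanged. A fold change counted so if it kept its direction and side of the threshold. A change of sign also counted so if the value moved by less than the SE and neither value was called. F tests over all groups were judged by the threshold alone, and FPKM means and marker ratios by a move smaller than the SD or SE. The cause of the other differences was not tested.

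The replicate letter as a block moved the 4-day count to 0 (Rbfox1 -0.58, adjusted p 0.0574; 7.74% of all genes) and changed no other count of regulators. The deviations of 4-day and saline hearts with the same letter had correlations of -0.24, -0.28, 0.14 and -0.02 for letters A to D. Those with different letters ran from -0.27 to 0.26. Values this few and this spread cannot tell whether hearts with the same letter share a litter or a day. Groups of 3 or 4 hearts limit what could be called, and transcript and exon values rest on how RSEM shares reads among annotated transcripts.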
